A study of Mus musculus with 6 samples.

Results

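Molecular chaperones of the cytosol and the mitochondrion are proteins that help other proteins reach and keep their fold. The list studied here has 48 genes, chosen by name: the heat shock factors, the HSP70 and HSP110 families, J-domain proteins, HSP90 and its co-chaperones, BAG proteins with the ubiquitin ligase Stub1, the CCT chaperonin, prefoldin and the chaperones of the mitochondrial matrix. Transcript levels were read on Affymetrix GeneChip arrays, where each transcript is detected by 1 or more probe sets of short oligonucleotides. Of the 48 genes, 45 had a probe set that the platform annotation assigns to 1 gene only, out of 18193 such genes in all, and each gene was read by its brightest probe set. All 45 lay above the limit set for dim signals and were tested, among 12408 genes tested in all. The remaining 3 members, Hsf1, Hsp90ab1 and Ptges3, are not analysed here.

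The samples were 3 arrays of mouse myoblasts treated with an shRNA (short hairpin RNA) that targets LncMyoD and 3 arrays of control myoblasts. LncMyoD is a non-coding transcript known from a site upstream of Myod1, the gene of a myogenic factor. All 6 samples were primary myoblasts, the precursors of muscle fibres, with an age of 21 days in the labels. The shRNA was cloned into Tet-pLKO-puro, a lentiviral vector with a tetracycline-controlled promoter, and the virus was made in the human line 293T. The labels give neither the number of hairpins, nor an inducer, nor the mouse strain, nor what the controls received. They describe a growth medium with serum and bFGF and a differentiation medium with horse serum, but not which of them the profiled cells were in. The replicates are called biological, but whether each was a culture or an animal of its own is not said. The p-values thus measure only how much these arrays vary, and that variation may be technical. The level of LncMyoD is not analysed here, so the groups are named by their labels alone.

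HSP70 proteins bind exposed hydrophobic stretches of unfolded proteins in a cycle driven by ATP. J-domain proteins deliver clients and start ATP hydrolysis, and nucleotide exchange factors such as the HSP110 and BAG proteins release them. HSP90 acts later, on kinases, hormone receptors and other clients, while the ring-shaped CCT complex folds actin and tubulin that prefoldin hands to it. In heat or other proteotoxic stress the heat shock factor HSF1 binds heat shock elements, inverted repeats of the letters GAA, and raises transcription of Hspa1a and Hspa1b above all. Muscle cells depend on these systems for folding actin and myosin, and in differentiating myoblasts for building the sarcomere.

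Promoter sequences of RefSeq (GRCm38.p6, 250 bases before to 50 after each start site) were found for 40 of the 48 members. They are shown because the pair of genes that rose most, Hspa1a and Hspa1b, have nearly the same promoter. Another reason is that heat shock elements occur in members that rose, that fell and that did not pass the test. Those of Dnajb4 and Cct5, which fell, are not printed. The letters searched were GAANNTTC and TTCNNGAA, each its own reverse complement, and the longer forms GAANNTTCNNGAA and TTCNNGAANNTTC, which are reverse complements of each other and contain the shorter ones. Capitals mark these matches, and positions count from the start site, with -1 the base before it.
Hspa1a, chr17:34972227-34972306, minus strand, positions -150 to -71: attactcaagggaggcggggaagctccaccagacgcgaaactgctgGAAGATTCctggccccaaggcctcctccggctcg
Hspa1b, chr17:34959309-34959388, minus strand, positions -150 to -71: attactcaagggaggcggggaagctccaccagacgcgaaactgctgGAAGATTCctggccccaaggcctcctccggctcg
Dnajb6, chr5:29735828-29735887, plus strand, positions -70 to -11: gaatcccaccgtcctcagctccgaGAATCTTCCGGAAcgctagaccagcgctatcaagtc
Dnaja1, chr4:40722318-40722377, plus strand, positions -150 to -91: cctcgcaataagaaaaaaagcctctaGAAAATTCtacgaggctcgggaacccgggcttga
Stub1, chr17:25833010-25833069, minus strand, positions -150 to -91: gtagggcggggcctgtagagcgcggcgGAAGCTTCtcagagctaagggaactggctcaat
Hspe1, chr1:55088053-55088082, plus strand, positions -95 to -66: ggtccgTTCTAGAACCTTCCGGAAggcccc

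The Hspa1a and Hspa1b promoters were identical at 296 of 300 positions and over all 80 bases shown. The Hspe1 element lies in DNA shared with Hspd1, since 285 of 300 bases of the Hspe1 window also belong to a window of Hspd1 on the other strand. A short element was found in 15 of 40 members (37.5%), against 17.0% of 27025 genes with a promoter sequence. A long element was found in 5 members (12.5%), against 0.662% of all genes. The members with a long element were Hspd1, Hspe1, Hsph1, Dnajb6 and Chordc1. These matches describe the letters in these windows and do not show binding.

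In the shRNA arrays the stress-inducible HSP70 genes Hspa1a and Hspa1b rose 1.78-fold and 1.45-fold, and the prefoldin subunit gene Pfdn4 fell to 61.2% of its control level. Most other chaperones moved little. Of 45 members 10 rose, 8 fell and 27 did not pass limma's test at an adjusted p of 0.05. That is 40% of the members, while 58.5% of all tested genes passed (35.7% higher, 22.8% lower). The median difference was 0.0078 over the members and 0.045 over all tested genes, on the log2 scale as shRNA minus control. The median size of a difference, whatever its sign, was 0.088 for the members and 0.21 for all tested genes.

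The split between higher and lower members depended on the scaling of the arrays. When the arrays were centred on their medians of tested probe sets, 5 members were higher and 19 lower, and the median member difference was -0.056. Over all tested genes the split moved too, to 3618 higher and 3670 lower, against 4425 higher and 2828 lower without centring. Under every alternative that tested them, 11 calls were kept: Hspa1a, Hspa1b, Hspa4l, Dnajb6 and Stub1 higher, and Dnajb2, Dnajb4, Bag1, Cct5, Pfdn2 and Pfdn4 lower. The arrays of both groups did not overlap in 23 members, with the shRNA arrays above in 11 and below in 12, while 64.7% of all tested genes had no overlap (39.1% above, 25.5% below).

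**Figure D1:**
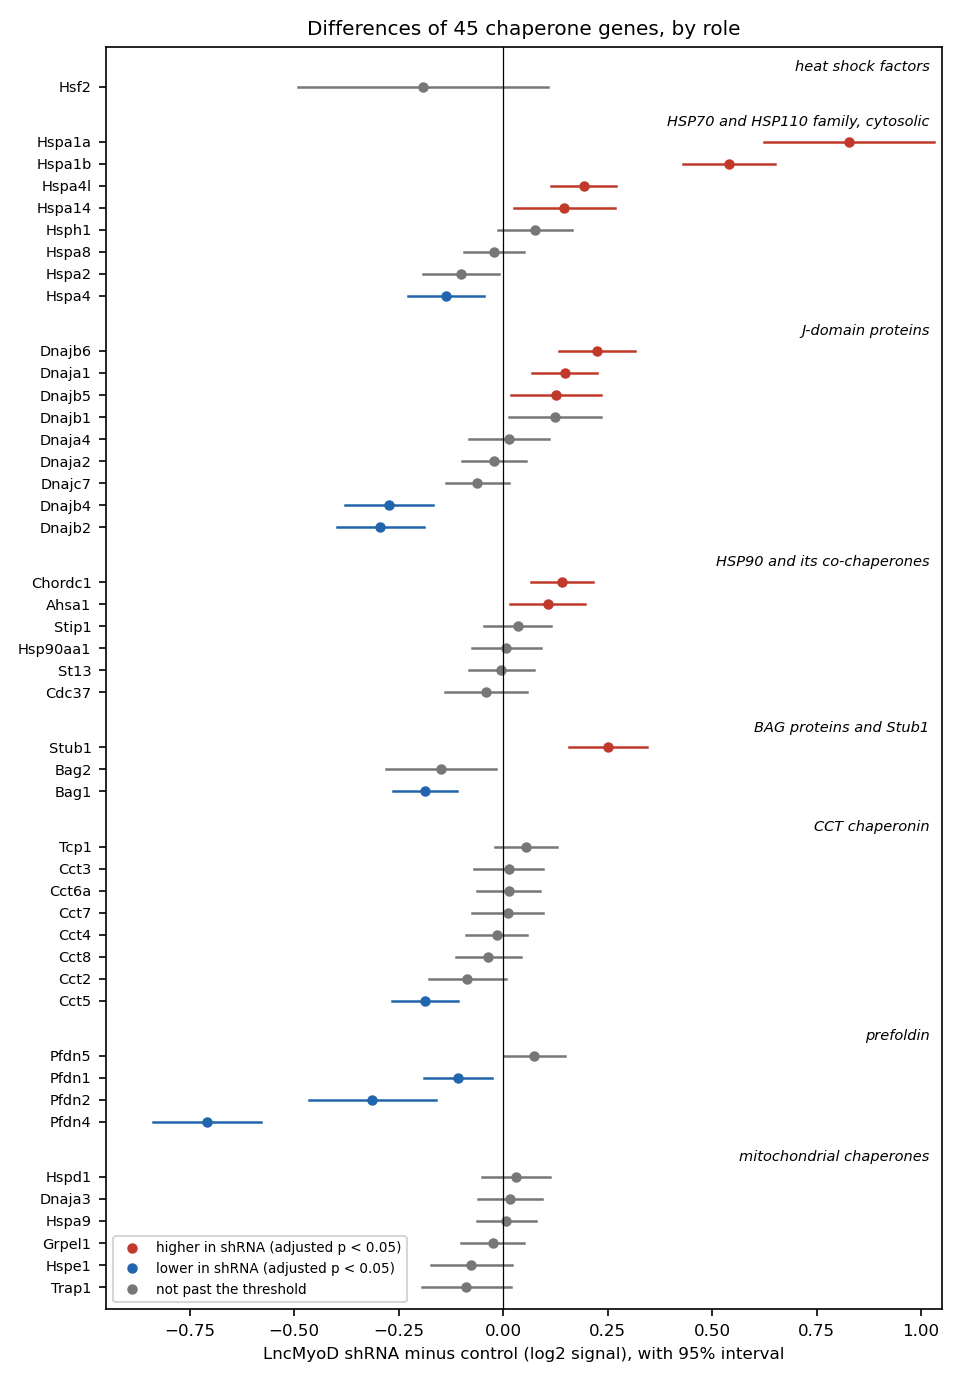
Difference of each of the 45 tested chaperone genes, LncMyoD shRNA minus control on the log2 scale, grouped by role; points are limma estimates and lines their 95% intervals, with colours for genes that passed an adjusted p of 0.05. Hspa1a (0.83) and Hspa1b (0.54) lie farthest to the right and Pfdn4 (-0.71) farthest to the left, while the CCT and mitochondrial groups stay near 0.

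The chaperones were also brighter than most genes on these arrays. Their median mean signal was 12.74, against 10.26 over all tested genes, and 20 of 45 members had a mean above 13, as did 940 of all tested genes (7.58%). Above 13, 5 of 20 members passed (25.0%), while 45.1% of all genes in that range did (22.6% higher, 22.6% lower). At or below 13, 13 of 25 members passed (52.0%), while 59.5% of all genes in that range did (36.7% higher, 22.8% lower). Over all genes above 13 the median size of a difference was 0.082, against 0.23 at or below 13. Whether signals near the top of the range understate a change was not tested.

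**Figure D2:**
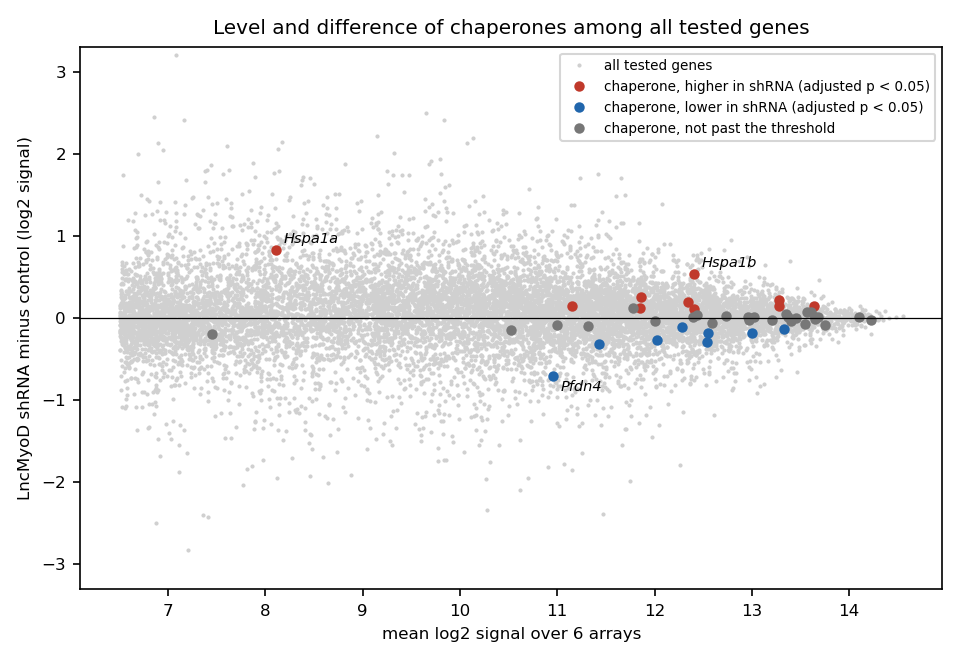
Mean log2 signal over the 6 arrays (horizontal) against the difference, LncMyoD shRNA minus control on the log2 scale (vertical), for the chaperones in colour and all 12408 tested genes in light grey. The chaperones crowd at the bright end, with a median of 12.74, where differences of all genes are smaller. Hspa1a, at a mean of 8.11, and Hsf2, at 7.46, lie apart from them.

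Signs of RNA integrity and of cell identity moved with the groups as well. The log2 ratio of 3′ to 5′ signal was 0.55 ± 0.017 in shRNA arrays and 0.51 ± 0.018 in controls for the actin control probe sets. For GAPDH it was 0.23 ± 0.038 in shRNA arrays and 0.14 ± 0.045 in controls (SD, n = 3 each). The differences were 0.044 and 0.085, and the exact two-sided permutation test gave p = 0.1 for both, its lower limit with 20 assignments. Their part in the results was not tested. Muscle markers (Acta1, Myh3, Tnnt3, Ckm, Mylpf) had a summed log2 signal of 16.08 to 16.14 in shRNA arrays and 16.14 to 16.19 in controls, a sum carried by the brightest of them. Ckm, the muscle creatine kinase, fell by 1.41 to 37.6% of its control level (limma adjusted p = 2.19e-09). Myh3 fell by 0.15 and Acta1 by 0.088 (limma adjusted p = 0.00109 and 0.0386), while Tnnt3 and Mylpf did not pass. Myoblast markers (Myod1, Myf5, Pax7, Des) stood at 14.76 to 14.86 in shRNA arrays and 14.66 to 14.76 in controls, a sum carried by Myod1 and Des, which did not pass. Pax7, a factor of muscle stem cells, rose by 0.66 and the myogenic factor Myf5 by 0.62 (limma adjusted p = 2.67e-07 and 0.000384). The part of these marker shifts in the chaperone results was not tested. Of fibroblast markers 2 of 5 lay above the limit for dim signals, with Pdgfra higher (0.89) and Col1a1 lower (-0.42) in shRNA arrays, and their summed signal was 8.58 to 8.91 in shRNA arrays and 8.56 to 8.63 in controls. Of 4 leukocyte markers Cd68 did (0.33), at sums of 7.70 to 8.02 in shRNA arrays and 7.57 to 7.76 in controls. Of 4 endothelial and 2 measured adipocyte markers 0 did, with sums of 7.78 to 8.09 and 6.41 to 6.51 in shRNA arrays, against 7.83 to 8.003 and 6.34 to 6.77 in controls. Fewer cells of a type and less RNA per cell cannot be told apart in such bulk samples.

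The cytosolic HSP70 and HSP110 family held the largest increases. Of 8 genes 4 rose and 1 fell, with a median difference of 0.11. That is 62.5% called, near the 58.5% of all tested genes (35.7% higher, 22.8% lower). Hspa1a, a stress-inducible HSP70, had log2 signals of 8.54, 8.47 and 8.55 in shRNA arrays, against 7.63, 7.61 and 7.84 in controls. All 3 shRNA arrays lay above the highest control array. The difference was 0.83 (SE 0.094, limma adjusted p = 8.44e-06).

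Hspa1b, its neighbour on chromosome 17, read 12.61, 12.66 and 12.76 in shRNA arrays, against 12.12, 12.06 and 12.22 in controls. Again no shRNA array reached down to the controls, and the difference was 0.54 (SE 0.051, limma adjusted p = 1.53e-06). Both other probe sets of Hspa1b gave the same call. The first had a mean of 11.36 in shRNA arrays and 10.76 in controls, a difference of 0.60, and the second 9.62 and 8.87, a difference of 0.76. The transcripts of these genes are nearly identical, so their probe sets may each read both, and their separate levels are uncertain. Among all tested genes 17.7% passed with a difference of at least 0.5. The members that did so were Hspa1a, Hspa1b and Pfdn4.

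**Figure D3:**
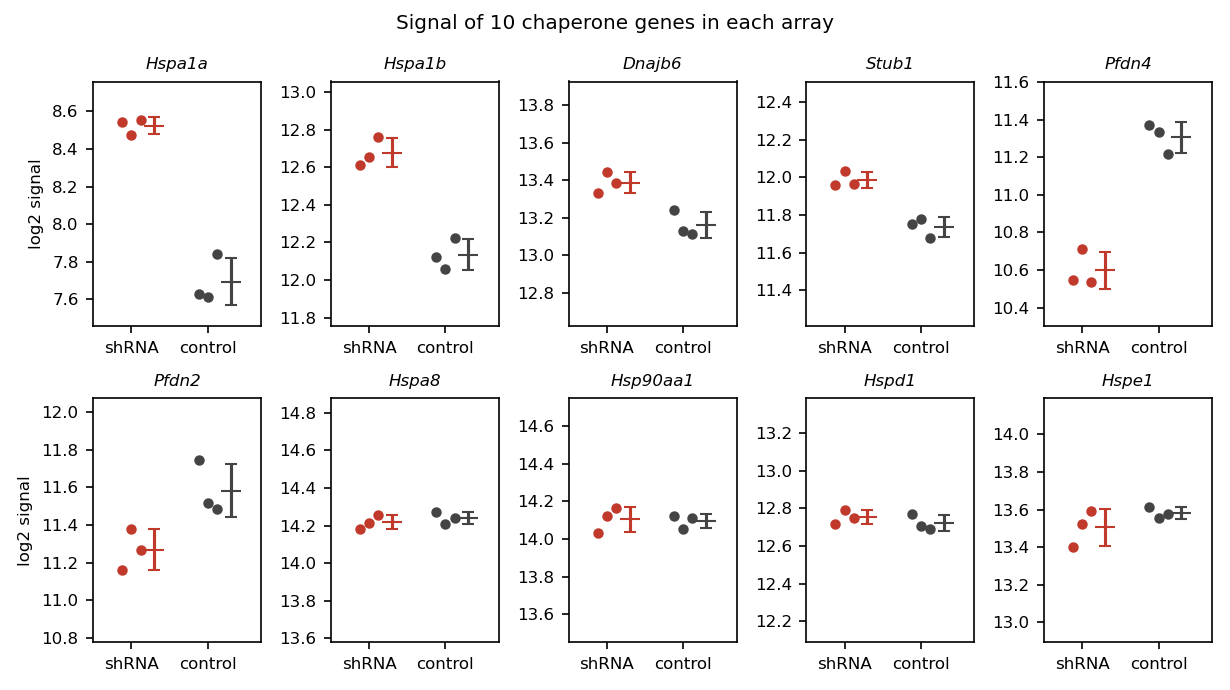
Log2 signal of 10 chaperone genes in each array, shRNA left and control right, each panel spanning 1.3 log2 units; points are arrays and bars the mean ± SD of 3. Hspa1a, Hspa1b, Dnajb6 and Stub1 lie higher and Pfdn4 and Pfdn2 lower in all shRNA arrays, while Hspa8, Hsp90aa1, Hspd1 and Hspe1 overlap between the groups.

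The constitutive member Hspa8, the main cytosolic HSP70 of unstressed cells, read 14.18, 14.21 and 14.26 in shRNA arrays, against 14.27, 14.21 and 14.24 in controls. These arrays overlapped, and the difference was -0.021 with a 95% interval of -0.093 to 0.050 (limma adjusted p = 0.616). Its next probe sets, at 14.1 and 13.9 in shRNA arrays, did not pass either. A dim one at 7.94 in shRNA arrays and 8.34 in controls was lower (-0.39, limma adjusted p = 0.00381). Centring the arrays turned Hspa8 into a call of -0.086 (limma adjusted p = 0.0402), and averaging its probe sets gave -0.13 (0.00636).

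HSP110 proteins release nucleotide from HSP70. Hspa4l read 12.42, 12.43 and 12.47 in shRNA arrays and 12.25, 12.23 and 12.27 in controls, a difference of 0.19 (SE 0.036, limma adjusted p = 0.000597). All 5 of its probe sets rose, by 0.12 to 0.35. Its relative Hspa4 went the other way, at 13.20, 13.24 and 13.34 in shRNA arrays and 13.38, 13.35 and 13.45 in controls (-0.14, limma adjusted p = 0.0143). This small decrease was no longer called without shRNA array 1 (-0.11, limma adjusted p = 0.0542) or 2 (-0.13, 0.0575), without control 3 (-0.11, 0.0759) and without a variance trend (0.0806). A second probe set of Hspa4, at 13.13 in shRNA arrays and 13.17 in controls, did not pass (-0.037, limma adjusted p = 0.387). A dimmer one, at 12.32 and 12.53, fell by 0.22 (limma adjusted p = 0.000381). The third HSP110 gene, Hsph1, a heat-inducible gene, stood at 0.077 with an interval of -0.011 to 0.17 (limma adjusted p = 0.130). Without shRNA array 1 it was called higher, by 0.12 (limma adjusted p = 0.0240), and with quantile normalization by 0.089 (0.00978). The other probe set of Hsph1 went the other way and did not pass (-0.042, limma adjusted p = 0.416).

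Hspa14, an HSP70 relative bound to ribosomes, was called higher by 0.15 (limma adjusted p = 0.0411), but the call did not hold. Without shRNA array 2 the difference was 0.092 (limma adjusted p = 0.208), without control 2 it was 0.17 (0.0521) and without control 3 it was 0.11 (0.152). Its dimmest probe set fell by 0.44 (limma adjusted p = 0.00207), and the mean of its probe sets was -0.086. Hspa2, an HSP70 best known from the testis, differed by -0.10 (limma adjusted p = 0.0603). It was called lower with the arrays centred (-0.16, limma adjusted p = 0.00454) and by quantiles (-0.13, 0.00896). The fit with probe sets averaged called it too (0.0400), although Hspa2 has no other probe set and its difference stayed the same.

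J-domain proteins, which activate HSP70, moved both ways. The test called 3 of 9 higher and 2 lower, and the median was 0.013. That is 55.6% called, near the 58.5% of all tested genes (35.7% higher, 22.8% lower). Dnajb6, which keeps aggregation-prone proteins soluble and is mutated in a human limb-girdle muscular dystrophy, read 13.33, 13.44 and 13.39 in shRNA arrays and 13.24, 13.13 and 13.12 in controls. The shRNA arrays were all higher, and the difference was 0.23 (SE 0.042, limma adjusted p = 0.000585). Of its 4 probe sets 3 rose, while the dimmest went the other way and did not pass (-0.14, limma adjusted p = 0.0863). Dnaja1, a main cytosolic partner of Hspa8, read 13.32, 13.35 and 13.39 in shRNA arrays and 13.25, 13.16 and 13.20 in controls, a difference of 0.15 (limma adjusted p = 0.00390). Its other probe sets rose by 0.35 and 0.38, although its brightest one was not called with the arrays centred (0.083, limma adjusted p = 0.0533).

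Dnajb2, which carries ubiquitin-interacting motifs and links HSP70 to the proteasome, had 12.30, 12.37 and 12.50 in shRNA arrays and 12.70, 12.67 and 12.68 in controls. It fell by 0.29 (SE 0.048, limma adjusted p = 0.000199). Dnajb4, a close relative of Dnajb1, read 11.80, 11.95 and 11.92 in shRNA arrays and 12.23, 12.15 and 12.11 in controls, and fell by 0.27 (limma adjusted p = 0.000396). No array of either gene overlapped between the groups. Both tested probe sets of Dnajb4 fell.

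Dnajb1, the J-domain protein that is induced with Hspa1a in heat shock, read 11.77, 11.82 and 11.95 in shRNA arrays and 11.77, 11.71 and 11.69 in controls. The arrays overlapped, and the difference of 0.12 just missed the threshold (95% interval 0.015 to 0.23, limma adjusted p = 0.0530). It passed without shRNA array 1 (0.17, limma adjusted p = 0.0220) or control 1 (0.15, 0.0358), with probe sets averaged (0.11, 0.0471) and with the stricter filter (0.0476). Dnajb5, another relative, lay just inside, at 0.13 (limma adjusted p = 0.0454). Its call was lost in 10 of 14 alternatives, among them the removal of shRNA array 2 (0.13, limma adjusted p = 0.0944) or 3 (0.079, 0.203) and of control 2 (0.11, 0.137) or 3 (0.13, 0.0951). A second probe set of Dnajb5 rose by 0.21 (limma adjusted p = 0.00686), and its dimmest did not pass (-0.11, 0.406). Dnaja2, Dnaja4 and Dnajc7, the last an adaptor that binds HSP70 and HSP90, differed by -0.022, 0.013 and -0.061 and did not pass, though Dnaja2 (-0.086, limma adjusted p = 0.0382) and Dnajc7 (-0.13, 0.00717) did with the arrays centred.

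HSP90 and most of its co-chaperones differed little. Of 6 tested genes 2 rose and 0 fell, and the median difference was 0.022. That is 33.3% called, against 58.5% of all tested genes (35.7% higher, 22.8% lower). Of the 6, 3 had a mean above 13, where 45.1% of all tested genes passed. Hsp90aa1, the stress-responsive cytosolic HSP90, read 14.03, 14.12 and 14.16 in shRNA arrays and 14.12, 14.05 and 14.11 in controls. The groups overlapped, and the difference was 0.0078 with a 95% interval of -0.075 to 0.091 (limma adjusted p = 0.884). None of its other 4 probe sets passed. Stip1, which hands clients from HSP70 to HSP90, read 12.44, 12.43 and 12.50 in shRNA arrays and 12.44, 12.41 and 12.41 in controls, a difference of 0.035 (-0.045 to 0.12, limma adjusted p = 0.451). The HSP70-binding factor St13 differed by -0.0046 and the kinase-loading co-chaperone Cdc37 by -0.041, and neither passed, except with probe sets averaged (-0.10, limma adjusted p = 0.0360, and -0.20, 0.0275) and, for Cdc37, with the arrays centred (-0.11, 0.0315).

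Chordc1, an HSP90-binding protein, had the larger increase of the 2 that rose among these 6 genes. It read 13.67, 13.72 and 13.73 in shRNA arrays and 13.60, 13.53 and 13.57 in controls, a difference of 0.14 (SE 0.034, limma adjusted p = 0.00359), which missed the threshold with the arrays centred (0.077, 0.0634). Its promoter held 3 overlapping long elements, the first starting at position -4 and the last ending 19 bases into the transcript. Ahsa1, which activates the ATPase of HSP90, was called higher by 0.11 (limma adjusted p = 0.0435). That call was lost without shRNA array 2 (0.078, limma adjusted p = 0.198) or 3 (0.10, 0.0953), without control 2 (0.097, 0.119) or 3 (0.097, 0.116), and with the arrays centred (0.043, 0.363), no filter (0.0649) or no variance trend (0.127).

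Stub1 and the BAG proteins act where chaperones meet degradation. Stub1, the ubiquitin ligase CHIP, read 11.96, 12.03 and 11.97 in shRNA arrays and 11.75, 11.78 and 11.68 in controls. All shRNA arrays were higher, by 0.25 (SE 0.043, limma adjusted p = 0.000286), and its other probe set rose by 0.20. Bag1, a nucleotide exchange factor that couples HSP70 to the proteasome, read 12.42, 12.49 and 12.46 in shRNA arrays and 12.65, 12.65 and 12.64 in controls, and fell by 0.19 (limma adjusted p = 0.000651). Bag2, an inhibitor of Stub1, lay just outside the threshold at -0.15 (limma adjusted p = 0.0538), with all shRNA arrays below the controls, and was called lower without control 3 (-0.20, limma adjusted p = 0.0211) and under both other scalings (-0.21, 0.00418 centred, and -0.20, 0.00594 by quantiles). A stricter filter (0.0453) also called it. So did the fit with probe sets averaged (0.0462), although Bag2 has no other probe set and its difference stayed the same.

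The CCT chaperonin subunits differed little between the groups. Of 8 tested 1 fell and 7 did not pass, with differences from -0.19 to 0.055 and a median of -0.0025. The mean signal of 7 of the 8 lay above 13, where 45.1% of all tested genes passed and the median size of a difference was 0.082. Tcp1, the subunit after which the complex is named, read 13.36, 13.41 and 13.37 in shRNA arrays and 13.34, 13.33 and 13.29 in controls, a difference of 0.055 (95% interval -0.018 to 0.13, limma adjusted p = 0.192). The 95% intervals of the 7 subunits that did not pass lay between -0.18 and 0.13.

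Cct5 was the exception, at 12.89, 12.93 and 12.90 in shRNA arrays and 13.13, 13.11 and 13.05 in controls. It fell by 0.19 (SE 0.036, limma adjusted p = 0.000734), with no overlap between the groups, and has 1 probe set. Cct2 (-0.085, limma adjusted p = 0.110) was called lower without shRNA array 3 (-0.12, 0.0319), without control 2 (-0.12, 0.0358) and with the arrays centred (-0.15, 0.0154). Cct8 (-0.035) passed with the arrays centred (-0.10, limma adjusted p = 0.0460). Cct3, Cct4, Cct6a and Cct7 differed by 0.014, -0.015, 0.013 and 0.011, and none was called in any alternative, although dimmer probe sets of Cct3 fell by 0.18 and 0.24 and a second one of Cct7 by 0.14.

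Prefoldin, the partner that delivers unfolded actin and tubulin to CCT, fell in 3 of the 4 subunits on the list, with a median difference of -0.21, and in 3 of 6 when Pfdn6 and Vbp1, tested with the wider network, are counted (median -0.095). Pfdn6 differed by 0.12 (limma adjusted p = 0.131) and Vbp1 by -0.083 (0.0754), and neither passed. Of all tested genes 22.8% were lower. Pfdn4 read 10.54, 10.71 and 10.54 in shRNA arrays and 11.37, 11.33 and 11.22 in controls. The groups were far apart relative to their spread, and the gene fell by 0.71 (SE 0.060, limma adjusted p = 6.14e-07). Pfdn2 read 11.16, 11.38 and 11.27 in shRNA arrays and 11.74, 11.52 and 11.48 in controls, and fell by 0.31 (SE 0.070, limma adjusted p = 0.00217). Each of these genes has 1 probe set, and no heat shock element was found in their promoter windows.

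Pfdn1 fell by 0.11 (limma adjusted p = 0.0282), a call lost without shRNA array 1 (-0.085, 0.117) or 2 (-0.11, 0.0639), without control 2 (-0.10, 0.0757) and without a variance trend (0.0888). Pfdn5 read 13.62, 13.62 and 13.59 in shRNA arrays and 13.56, 13.55 and 13.49 in controls. The shRNA arrays were all higher, but the difference of 0.075 did not pass (limma adjusted p = 0.0786) unless control 1 was left out (0.090, 0.0467). One of its dimmer probe sets was lower (-0.15, limma adjusted p = 0.0438). 
Of the 6 chaperones of the mitochondrial matrix 0 passed limma's test, and 0 had an unadjusted p under 0.05, while 58.5% of all tested genes passed. Of the 6, 3 had a mean above 13, where 45.1% of all tested genes passed. Their 95% intervals lay between -0.19 and 0.11. Hspa9, the mitochondrial HSP70, read 13.67, 13.70 and 13.68 in shRNA arrays and 13.71, 13.65 and 13.67 in controls, a difference of 0.0079 (-0.062 to 0.078, limma adjusted p = 0.858). Hspd1, the HSP60 chaperonin, read 12.72, 12.79 and 12.75 in shRNA arrays and 12.77, 12.71 and 12.69 in controls, a difference of 0.030 (-0.052 to 0.11, limma adjusted p = 0.531). On these probe sets the arrays of both genes overlapped between the groups. A dimmer probe set of Hspa9, at 10.91 in shRNA arrays and 11.09 in controls, was lower (-0.18, limma adjusted p = 0.00432). No other probe set of Hspa9 passed.

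Hspe1, the lid of the HSP60 chamber, shares its promoter with Hspd1, as shown above. It read 13.40, 13.52 and 13.59 in shRNA arrays and 13.62, 13.55 and 13.58 in controls, with the lowest value in shRNA array 1 and a difference of -0.076 (-0.17 to 0.022, limma adjusted p = 0.178). It was called lower without shRNA array 3 (-0.12, limma adjusted p = 0.0408) and with the arrays centred (-0.14, 0.0214). Trap1, the mitochondrial HSP90, differed by -0.088 (limma adjusted p = 0.149), with all shRNA arrays below the controls. It passed with the arrays centred (-0.15, limma adjusted p = 0.0174), by quantiles (-0.13, 0.0417) and with probe sets averaged (-0.18, 0.00579), as its other probe set fell by 0.28. The exchange factor Grpel1 and the J-domain protein Dnaja3 differed by -0.025 and 0.017, of which Grpel1 passed with the arrays centred (-0.089, limma adjusted p = 0.0252).

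Over all members, the brightest probe set was not always matched by the others. Of 61 further tested probe sets of 27 members 12 rose, 12 fell and 37 did not pass, while of all 10575 such probe sets 28.3% rose and 24.3% fell. Among those with a mean below 10 in members whose brightest probe set was above 12, 4 of 14 fell and 1 rose, with a median difference of -0.14. Over all genes 28.3% of 1575 such probe sets fell and 20.1% rose, with a median of -0.059, so the members' counts are near the background. This count was chosen after the values were seen.

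The heat shock factor Hsf2 was the dimmest member. It read 7.16, 7.54 and 7.38 in shRNA arrays and 7.83, 7.38 and 7.44 in controls, which overlapped, with a difference of -0.19 (95% interval -0.49 to 0.11, limma adjusted p = 0.262).

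Heat shock elements were found among members that rose, that fell and that did not pass. Of the 10 members that rose 6 held a short element and 2 a long one. The 6 include Hspa1a and Hspa1b, whose promoters are nearly the same. Of the 7 that fell and have a promoter sequence 2 held a short element, Dnajb4 and Cct5, and 0 a long one. Of the 22 that did not pass 7 held a short element and 3 a long one, namely Hspd1, Hspe1 and Hsph1. The elements of Hspd1 and Hspe1 are the same stretch of shared DNA, read from either strand. Of all genes with a promoter sequence 17.0% held a short element and 0.662% a long one. Whether the elements had a part in the changes was not tested. In Hspa1a and Hspa1b the short element at -104 to -97 was the only match, and no letters of this form were found for Dnajb1, Stip1 or Ahsa1.

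**Figure D4:**
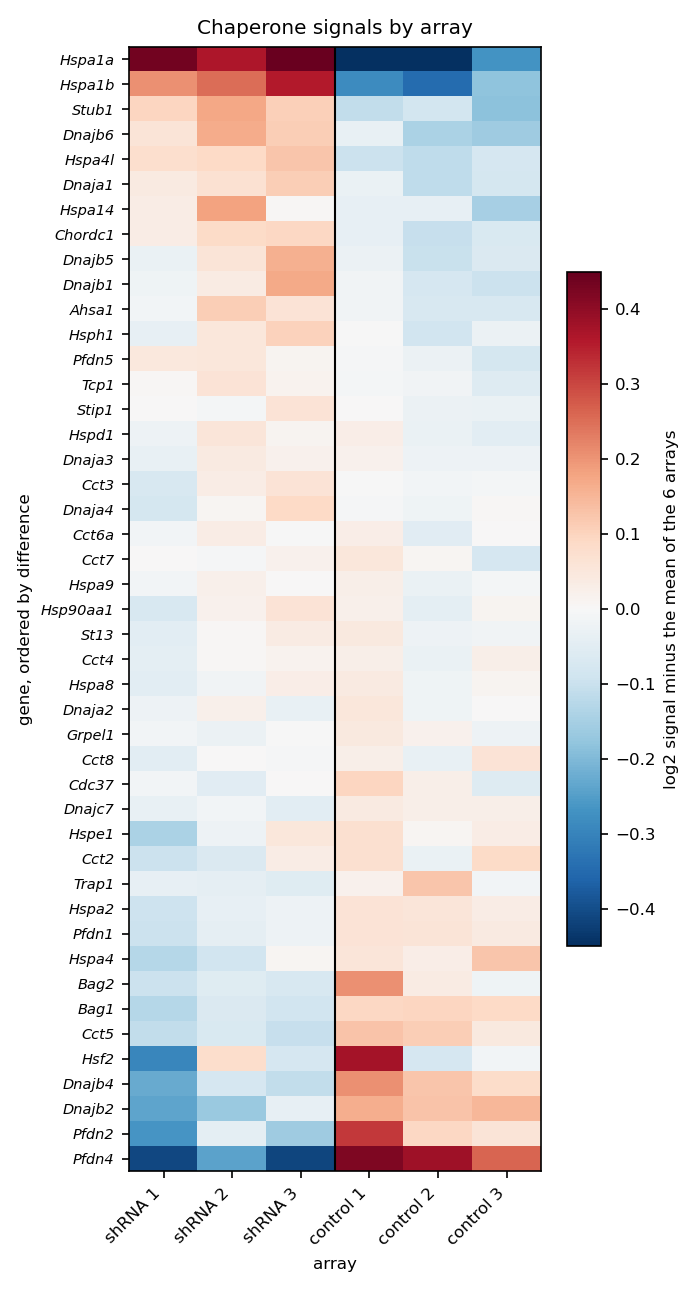
Log2 signal of each of the 45 tested chaperones in each array, shown as the difference from the gene's mean over the 6 arrays and ordered by the shRNA minus control difference; red is above and blue below the mean. Most rows are pale, and the strongest contrasts between the 3 shRNA columns on the left and the 3 control columns are those of Hspa1a and Hspa1b at the top and of Pfdn4 at the bottom.

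The wider chaperone network was described with 72 further genes of 4 lists, of which 66 were tested. Of these 17 rose and 21 fell, or 57.6%, near the 58.5% of all tested genes. More of them fell than rose, while over all tested genes 35.7% were higher and 22.8% lower. The median difference was -0.063, against 0.045 over all tested genes. Among 20 tested partners of HSP70 and HSP90 6 rose and 8 fell, or 70% called. Nudc, an HSP90 co-chaperone needed for nuclear migration and mitosis, had a mean of 10.68 in shRNA arrays and 11.53 in controls, and fell 1.80-fold (limma adjusted p = 5.08e-08). Its relative Nudcd3 fell by 0.57 (SE 0.047). Bag3, which sends damaged muscle proteins to autophagy, fell by 0.43 (SE 0.042), while the HSP90 co-chaperone Sugt1 rose by 0.25 and Tomm34, which binds HSP70 and HSP90, by 0.23. Unc45b, the myosin chaperone of striated muscle, fell by 0.20 and its general relative Unc45a rose by 0.30; this pair was chosen after its values were seen.

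Among 19 other J-domain proteins 7 rose and 4 fell. That is 57.9% called, near the 58.5% of all tested genes (35.7% higher, 22.8% lower). Dnajc9, which is also a chaperone of histones H3 and H4, read 11.83, 11.84 and 11.90 in shRNA arrays and 10.56, 10.51 and 10.36 in controls. It rose 2.60-fold (1.38, SE 0.054, limma adjusted p = 1.19e-09), the largest change among the members and these 4 lists. Dnajc24, which takes part in making diphthamide, fell by 0.70 (SE 0.065). Dnajc21, a factor of ribosome assembly, rose by 0.48, and Dnajc14 and the endosomal Dnajc13 rose by 0.26 and 0.20.

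Among 12 tested chaperonin-like, prefoldin and tubulin folding genes 2 rose and 4 fell. That is 50% called, against 58.5% of all tested genes (35.7% higher, 22.8% lower). The chaperonin-like genes Bbs10 and Mkks, both named in Bardet-Biedl syndrome, moved in opposite directions. Bbs10 rose by 0.70 (SE 0.089) and Mkks fell by 0.46 (SE 0.054). The tubulin cofactors Tbce and Tbcd fell by 0.21 and 0.13, and Txndc9, a regulator of CCT, rose by 0.16. Among 15 genes of mitochondrial import and proteolysis 2 rose and 5 fell, or 46.7% called, against the same 58.5% of all tested genes. Grpel2, the second exchange factor of mitochondrial HSP70, fell by 0.34 (SE 0.049) and the matrix protease Lonp1 rose by 0.30 (SE 0.059). Clpp rose by 0.14 while its partner Clpx fell by 0.13, and the import channel gene Timm23 fell by 0.10.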

How the data were processed

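Groups and replicate numbers came from the sample titles. The authors deposited normalized signals, taken here as log2 because they run between 4.48 and 14.6 with a median of 7.23 on each of the 6 arrays. PLIER and MAS5 are named without a role per the submitters' processing notes; the sources used here give no versions and no background correction. Arrays have no read depth, and their number, 3 per group, limits the precision.

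Of 45101 probe sets, 64 controls were left out, then the 40% with the lowest mean (18014), which kept 27023 with a mean of 6.50 or more. Of all probe sets 34958 had 1 gene symbol, 932 several and 9211 none here; 34754 matched RefSeq gene identifiers (GRCm38.p6) and 0 symbols changed. A gene was read by its brightest probe set. Differences, shRNA minus control, were tested with limma 3.58.1 in R 4.3.3 (lmFit, eBayes with a mean-variance trend, no covariates) and Benjamini-Hochberg adjustment over all probe sets tested; the threshold was 0.05. ± gives SDs. Of the columns of values 0 were without a sample. Pairs of arrays shared at most 0.00443% of their values.

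The members, gene lists and tests were chosen with earlier results of these data known. Values in every array are given for members that passed with a difference of at least 0.5, for a set of main chaperones and for others described; from each further list the 5 genes with the smallest p are named. Alternatives covered scaling, the filter on dim signals, the variance trend, the probe set of a gene, a replicate block and leaving out each array.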

Additional observations from a re-analysis of the deposited data

How the results depend on the processing

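When the arrays were centred on their medians of tested probe sets, 5 members were higher and 19 lower, with a median of -0.056, and the median of all tested genes became -0.019 in place of 0.045. With the probe sets of a gene averaged, 9 members were higher and 14 lower, the median was -0.045, over all genes 4270 were higher and 2846 lower, and Hspa14 turned to -0.086 (limma adjusted p = 0.165). Over all genes 3618 were higher and 3670 lower with the arrays centred, against 4425 and 2828 otherwise. Leaving out 1 array at a time gave 7 to 12 members higher, 6 to 10 lower and medians of -0.021 to 0.016. It gave 3894 to 4634 genes higher and 2475 to 2693 lower, and 3′ to 5′ differences of 0.033 to 0.053 for actin and 0.061 to 0.11 for GAPDH. Of 18 called members 11 kept their call in all alternatives that tested them and 7 lost it in at least 1; Hspa14 also changed sign. Of 27 members that did not pass, 15 passed in at least 1 of the 14 alternatives. Same-numbered arrays did not deviate together (correlations of deviations from the group means -0.13, -0.061 and 0.031). Arrays with unlike numbers gave -0.11 to 0.14. With 3 arrays per group this cannot show whether same-numbered samples share a culture or an animal. With the replicate number as a block, 8 members were higher and 7 lower; Dnajb5 (limma adjusted p = 0.0735), Ahsa1 (0.0946) and Pfdn1 (0.0700) lost their calls and no other member's call changed. The cause of these shifts was not tested. Dim signals were not set against a measured background.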

Other observations

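Single arrays of a group stood apart in the same way across many chaperones. The first shRNA array was the lowest of its group in 34 of 45 members (75.6%), against 49.6% of all tested genes. The first control array was the highest of its group in 33 members (73.3%), against 56.9% of all tested genes. Members share arrays and brightness, so these counts are not independent.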
